A study of Homo sapiens with 9 samples.

Results

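The genes described here are 30 targets and regulators of the transcription factor NF-κB, among them the main inflammatory cytokines and chemokines, out of 28395 genes counted in the series. They were given as a list by name, and the list was chosen with earlier results of these data known. The cells were differentiated Caco-2, a human colon adenocarcinoma line that forms an enterocyte-like layer when grown to confluence; the labels give its genotype as WT. Total RNA was sequenced after 24 h in regular medium (control, untreated), in medium with 10 µM Carmine, or in medium with 20 µM Carminic acid, with 3 libraries lettered A, B and C in each group. Both are red food colours from cochineal: carminic acid is the free anthraquinone pigment, and in carmine it is bound to aluminium. The groups of the 2 colours differ in concentration as well as in compound, so a difference between them cannot be told apart from a difference in dose. Nothing in the labels says that the letters mark separate cultures, and p-values therefore measure only how far these samples scatter, part of which may be technical.

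NF-κB is a family of dimers built from RELA, RELB, REL and the products of NFKB1 and NFKB2. In resting cells inhibitor proteins such as IκBα, the product of NFKBIA, keep the dimers out of the nucleus. Cytokines of the tumour necrosis factor and interleukin-1 families, and bacterial products sensed by Toll-like receptors, trigger the destruction of these inhibitors, after which the dimers bind κB sites in promoters and enhancers. The targets include chemokines that draw in leukocytes and the inhibitors themselves, so the response limits itself. In the gut epithelium CXCL8 and CCL20 are typical outputs of the pathway.

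The promoter windows of several genes are shown because they carry the short κB motif by which the family is usually recognised. RefSeq promoter sequences (GRCh38.p14) were matched for 24 of the 30 genes, and the 250 bases before each annotated start were searched on both strands. The κB consensus motif was present for 14 of the 24 genes, against 6.28% of the 27305 genes with a promoter in the same table. The shorter motif GGAATTTCC, which lies inside some of the consensus matches, was present for 10 of the 24 genes, against 0.502% of all genes. A match describes letters and is not evidence of binding in these cells. In each 30-base window below, written 5′ to 3′ on the strand of the gene, capitals mark the motif.
CXCL8 (chr4:73740468-73740497, plus strand): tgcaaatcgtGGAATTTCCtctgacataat
CXCL1 (chr4:73869304-73869333, plus strand): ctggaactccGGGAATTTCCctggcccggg
CXCL2 (chr4:74099254-74099283, minus strand): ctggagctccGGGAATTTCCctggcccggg
CXCL3 (chr4:74038749-74038778, minus strand): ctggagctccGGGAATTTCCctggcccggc
CCL20 (chr2:227813753-227813782, plus strand): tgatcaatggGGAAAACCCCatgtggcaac
NFKBIA (chr14:35404811-35404840, minus strand): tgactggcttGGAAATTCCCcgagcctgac
NFKBIZ (chr3:101827757-101827786, plus strand): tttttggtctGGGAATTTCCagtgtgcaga
TNFAIP3 (chr6:137867182-137867211, plus strand): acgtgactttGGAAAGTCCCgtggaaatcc
ICAM1 (chr19:10270924-10270953, plus strand): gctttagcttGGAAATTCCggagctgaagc
LCN2 (chr9:128149268-128149297, plus strand): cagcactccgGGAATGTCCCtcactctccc
The CXCL1, CXCL2 and CXCL3 windows show how alike the promoters of these neighbouring chemokine genes are around the motif. The likeness of their transcripts was not tested. The handling of reads with several matches is not given in the sources used here. The split of counts among CXCL1, CXCL2 and CXCL3, and between SAA1 and SAA2, is uncertain.

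Total counts ran from 54871018 to 57581301 per library. Of 13 enterocyte markers 12 had a group mean of at least 1 CPM. For these cell type markers CPM is the share of the unscaled library total. For all genes further below it is the share of the TMM-scaled library total. The summed level was 7236 to 7585 CPM in control, 7348 to 7961 in carmine and 7447 to 7999 in carminic acid libraries. KRT20 is listed at 0, and so are 14 of the 20 genes with the nearest starts (highest of the 20: KRT10-AS1, 14316 counts). This 0 is therefore not read as absence of KRT20. Of 8 immune markers 4 reached 1 CPM, CD68 (327.0 CPM in control), LYZ (11.7), CD14 (6.60) and ITGAM (2.08). The summed level of the 8 was 324.8 to 359.6 CPM in control, 350.2 to 354.9 in carmine and 344.0 to 403.2 in carminic acid. The pan-leukocyte marker PTPRC had 8 counts in all 9 libraries together and MS4A1 had 2. Of 8 stromal and endothelial markers 5 reached 1 CPM, led by COL1A1 (128.0 CPM in control) and PECAM1 (10.6). Their list summed to 122.7 to 164.9 CPM in control, 111.4 to 131.1 in carmine and 115.9 to 149.8 in carminic acid. COL1A2, DCN and ACTA2 had 4, 5 and 1 counts in all. The part of these markers in the results was not tested. The share of counts from the mitochondrial chromosome was 1.94% to 2.51% in control, 0.974% to 1.30% in carmine and 1.24% to 2.08% in carminic acid libraries, and its part in the results was not tested. Carmine library C stood apart on the first principal component, which held 20.9% of the variance, at 34.5 against -19.4 to 14.5 for the other 8 libraries. In bulk RNA fewer cells expressing a gene and less of its RNA per cell cannot be told apart.

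Of the 30 genes, 22 passed the filter on low counts and were tested among 16017 genes. At the length-scaled level (TPM, counts per transcript length), NFKBIA led in untreated cells with 38.8 ± 0.395 TPM (SD, n = 3), at percentile 83.2 of all genes, and ICAM1 followed with 36.9 ± 1.87 TPM. Their ranges overlapped, 38.4 to 39.2 TPM for NFKBIA and 35.0 to 38.7 TPM for ICAM1, so the order of this pair is not resolved. NFKBIZ, TNFAIP3, TLR2, NFKB2 and SOD2 lay between 23.2 and 18.8 TPM, and NFKB1 at 14.6 TPM. This order uses the longest transcript of each gene. SOD2's place depends most on it: its longest transcript has 14266 bases, and with the median transcript length of 991 bases its level was 270.0 TPM. Other places depend on it too: with median lengths ICAM1 had 52.8, NFKBIA 39.4, TNFAIP3 26.3 and LIF 16.8 TPM. LIF stood at 9.66, TNFAIP2 at 6.73 and RELB at 4.90 TPM. The secreted factors CCL20 (3.58 TPM), CCL2 (3.47), CXCL8 (2.43), IL1B (1.71), CXCL2 (1.60), IL1A (0.927), CSF1 (0.805) and CXCL3 (0.694) lay below these, together with PTGS2 (3.22) and BIRC3 (2.38), and the receptor TLR4 was the lowest tested gene at 0.034 TPM. Some neighbours in this order overlapped, for example CCL20 at 3.01 to 3.99 and CCL2 at 3.05 to 4.01 TPM.

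**Figure D1:**
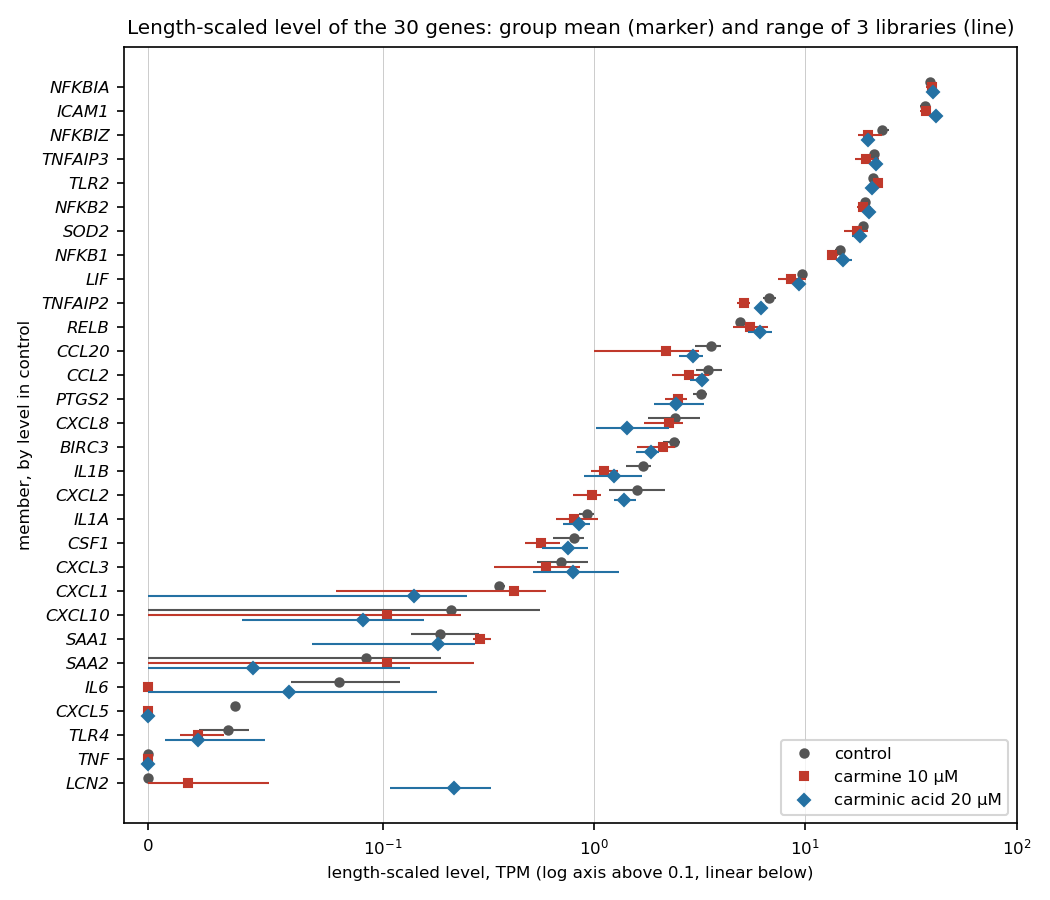
Length-scaled level (TPM, logarithmic above 0.1 and linear below) of the 30 genes in control, carmine 10 µM and carminic acid 20 µM cells, ordered by the control mean; markers are group means and lines the range of 3 libraries. With the longest transcript as length, NFKBIA and ICAM1 stand at the top in every group, while TNF is listed at 0 throughout.

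The remaining 8 of the 30 genes had too few counts to test and are given as raw counts in libraries A, B and C. TNF, the cytokine that typically starts the response, is listed at 0 counts in all 9 libraries. This 0 is not informative: among the 20 genes with the nearest starts on chromosome 6, 12 are also listed at 0 and the highest, PRRC2A, had 651 counts in all libraries together. DDX39B, an RNA helicase gene of mRNA splicing and export, lies beside TNF in this region and is listed at 0 too, whereas its paralogue DDX39A on chromosome 19 had 17292 counts. The other untested genes lie beside genes with high counts, for example CIZ1 near LCN2 with 68072 counts and TOMM7 near IL6 with 92024.

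IL6, a cytokine of the acute phase response, had 2, 4 and 2 counts in control, 0 in all 3 carmine libraries and 0, 6 and 0 in carminic acid. CXCL5, a neutrophil attractant, had 2 counts in each control library and 0 in the other 6. Against a floor of 3 counts over a group at 0, IL6 was 2.72-fold higher in control than in carmine (8 counts against 0). CXCL5 was 2.04-fold higher in control than in carmine and 2.02-fold higher than in carminic acid (6 counts against 0 in each). The floor covers only the counting error of the group at 0, and only where each count is a separate molecule. The few counts of the higher group carry error as well, so these folds are not smallest effects. With no filter on low counts edgeR gave unadjusted p-values of 0.0348 for IL6 in carmine and of 0.0553 for CXCL5 in each comparison with control, and adjusted p-values of 0.529 for the first and of 0.555 in carmine and 0.794 in carminic acid for the second. CXCL10, an interferon-inducible chemokine, had 0, 2 and 14 counts in control, 6, 2 and 0 in carmine and 1, 4 and 2 in carminic acid. CXCL1 had 8, 9 and 8 counts in control, 14, 14 and 2 in carmine and 4, 6 and 0 in carminic acid. Carmine library C was far below the other 2 libraries of its group for CXCL1, and the carmine and control ranges overlapped. The acute phase gene SAA1 had 1 to 5 counts in every library and SAA2 0 to 6, with overlapping groups.

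LCN2, which encodes the iron-siderophore-binding protein lipocalin 2, had 0 counts in each control library, 0, 0 and 1 in carmine and 4, 2 and 6 in carminic acid. Every carminic acid library was above every control library, with 12 counts against 0 in all, 3.96-fold higher against the same floor. The limits stated for the folds of IL6 and CXCL5 apply here too. An exact permutation test of 3 against 3 cannot go below p = 0.1. With no filter on low counts edgeR gave an unadjusted p of 0.00983 and an adjusted p of 0.794. Low counts in these files were mostly even: among genes with 1 to 8 counts in a library, 61.0% to 66.5% had an even count, and more genes had 2 counts than 1 (1039 against 588 in control library A). Counting intervals that treat each count as a separate molecule are therefore too narrow. The floor of 3 counts treats counts in the same way, so the folds given for IL6, CXCL5 and LCN2 may be too high.

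The comparison of carmine with control asked whether the aluminium complex altered expression. None of the 22 tested genes passed edgeR's quasi-likelihood test at an adjusted p of 0.05, and neither did any gene of the 16017 (0% called). At an unadjusted p under 0.05, 3 of the 22 were lower and 0 higher, where 5.61% of all genes were lower and 5.38% higher. Groups did not overlap for 4 genes with lower and 1 with higher values in carmine, against 7.67% and 7.32% of all genes. The fitted value was below control for 17 of the 22 and above for 5, with a median log2 fold change of -0.14; over all genes tested 51.7% were above and the median was 0.01. DESeq2 called 76 genes and limma-voom 43 in this comparison, none of them among the 22.

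The comparison of carminic acid with control asked the same of the free pigment. Again 0 of the 22 genes and 0% of all genes passed the edgeR test. At an unadjusted p under 0.05, 3 of the 22 were lower and 1 higher, where 3.91% of all genes were lower and 2.52% higher. Groups did not overlap for 1 gene with lower and 3 with higher values, against 8.82% and 12% of all genes. Fitted values were below control for 14 and above for 8 of the 22, with a median log2 fold change of -0.08, while over all genes 48.1% were above and the median was -0.01. These comparisons share the control libraries, so their values are given side by side and not as support for each other.

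**Figure D2:**
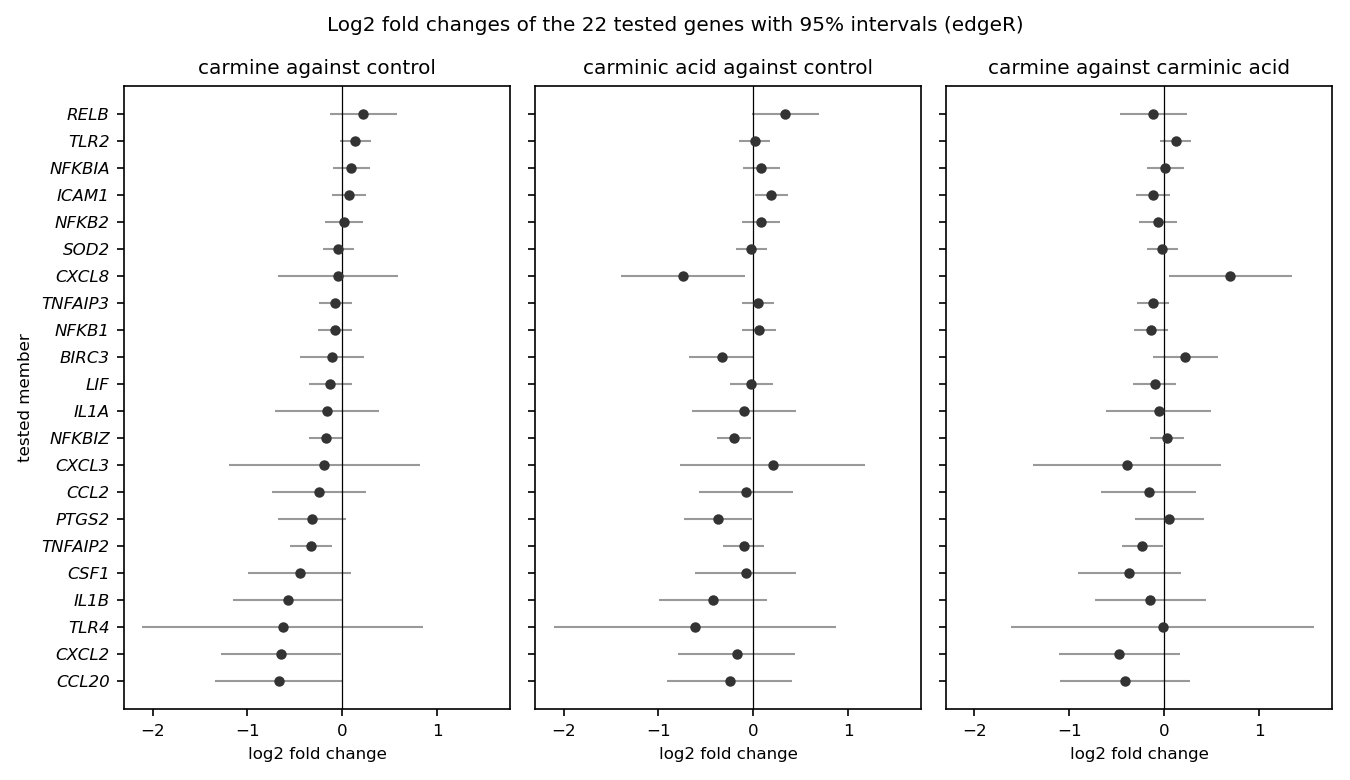
Log2 fold changes (edgeR, points) with 95% intervals (lines) of the 22 tested genes for each colour against control and for the 2 treated groups against each other, in the order of the carmine values. Intervals are narrow for the well-counted regulators and wide for CXCL3 and TLR4, and the median log2 fold change was -0.14, -0.08 and -0.11.

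The tested chemokines had group means of 0.247 to 1.57 CPM. CXCL8, the main neutrophil attractant (chr4:73740569-73743716), stood at 1.15, 1.50 and 2.05 CPM in control libraries A, B and C, at 1.56, 1.76 and 1.22 in carmine and at 1.44, 0.678 and 0.688 in carminic acid. Carminic acid libraries B and C were below all others, while library A lay within the control range, so the groups overlapped. The log2 fold change of carminic acid against control was -0.74 with a standard error of 0.30 (unadjusted p = 0.0277, edgeR adjusted p = 0.717). For carmine it was -0.05 (edgeR adjusted p = 0.964). Leaving out carminic acid library A moved the CXCL8 value to -1.20 and leaving out control library C moved it to -0.50.

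CXCL2, another CXCR2 ligand (chr4:74097040-74099195), was at 0.985, 0.671 and 0.543 CPM in control, 0.481, 0.517 and 0.401 in carmine and 0.596, 0.589 and 0.760 in carminic acid. All 3 carmine libraries were below all 6 others, by a log2 fold change of -0.65 against control with a standard error of 0.30 (unadjusted p = 0.0450, edgeR adjusted p = 0.450). Control library A was the highest, and without it the CXCL2 value was -0.38. Carminic acid overlapped with control (-0.18, edgeR adjusted p = 0.864); the value was 0.086 without control library A and -0.35 without control library C.

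CCL20, which attracts CCR6-bearing lymphocytes and dendritic cells (chr2:227813842-227817556), was at 1.16, 0.972 and 1.26 CPM in control, 0.755, 1.03 and 0.346 in carmine and 0.788, 1.07 and 0.995 in carminic acid. Carmine library C was the lowest of all 9, and carmine library B lay within the control range. The log2 fold change in carmine was -0.67 with a standard error of 0.32 (unadjusted p = 0.0525, edgeR adjusted p = 0.454), and -0.34 without carmine library C. In carminic acid the CCL20 value was -0.25 (edgeR adjusted p = 0.814). The monocyte attractant CCL2 had group means of 0.972 ± 0.141, 0.819 ± 0.142 and 0.920 ± 0.0839 CPM (SD, n = 3) in control, carmine and carminic acid. CXCL3 had 0.283 ± 0.0927, 0.247 ± 0.101 and 0.325 ± 0.174 CPM. The groups overlapped for both CCL2 and CXCL3.

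Among the cytokines, IL1B, the secreted interleukin-1 that itself activates NF-κB (chr2:112829751-112836779), was at 1.13, 1.17 and 0.876 CPM in control, 0.790, 0.677 and 0.656 in carmine and 0.701, 0.571 and 1.09 in carminic acid. The carmine libraries were all below the control libraries, and carminic acid library C lay within the control range. IL1B's log2 fold change was -0.58 in carmine with a standard error of 0.27 (unadjusted p = 0.0497, edgeR adjusted p = 0.454) and -0.43 in carminic acid (edgeR adjusted p = 0.717). Leaving out carminic acid library C moved the latter to -0.74 and leaving out library B moved it to -0.24. IL1A, which acts on the same receptor, had group means of 0.744 ± 0.0543, 0.665 ± 0.142 and 0.694 ± 0.0846 CPM (SD, n = 3). LIF, an IL-6 family cytokine (chr22:30240453-30246759), was the most abundant secreted factor of the list at 14.4, 15.2 and 13.9 CPM in control, 14.9, 11.6 and 13.3 in carmine and 13.2, 14.2 and 15.3 in carminic acid. Its groups overlapped, with log2 fold changes of -0.13 (95% interval -0.35 to 0.10) and -0.02 (-0.25 to 0.20). CSF1, a macrophage growth factor, had 1.28 ± 0.232, 0.938 ± 0.239 and 1.21 ± 0.265 CPM. Its carmine libraries A, B and C were at 0.738, 0.873 and 1.20 CPM.

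**Figure D3:**
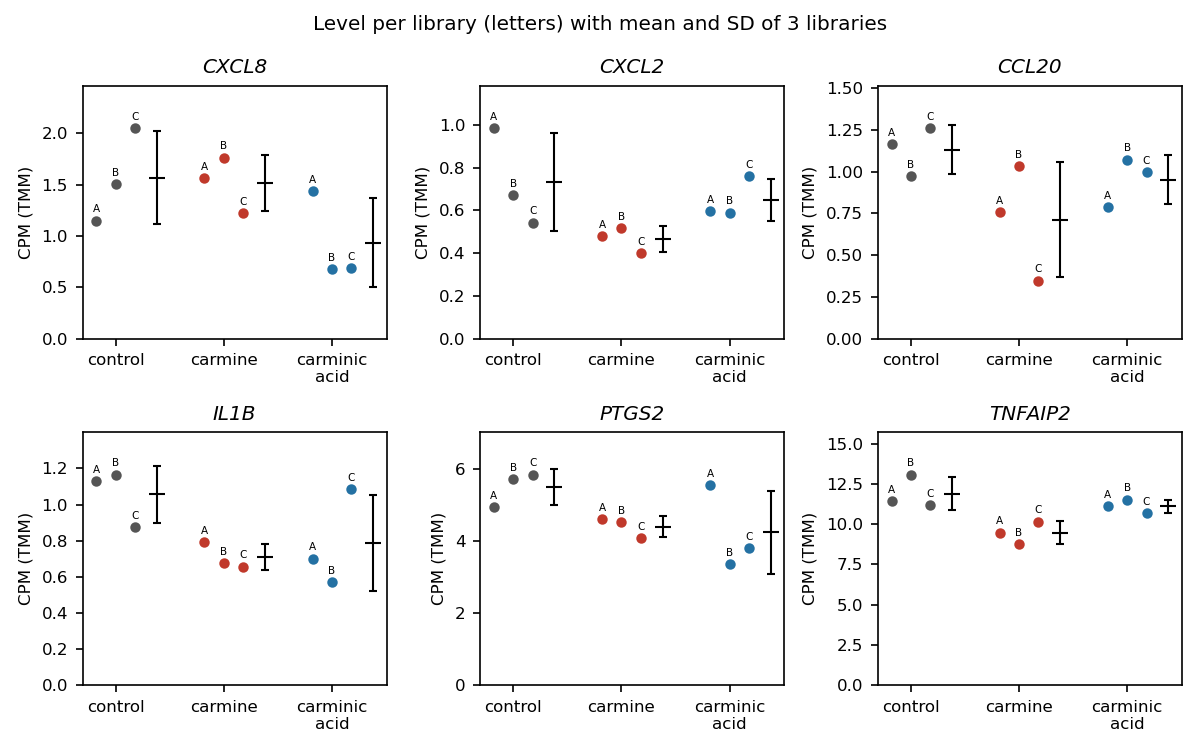
TMM-scaled level (CPM, linear axis from 0) of CXCL8, CXCL2, CCL20, IL1B, PTGS2 and TNFAIP2 in each library, with group mean and SD of 3 libraries. Carmine points lie below every control point for CXCL2, IL1B, PTGS2 and TNFAIP2, and carminic acid library A stands above B and C for CXCL8 and PTGS2.

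The feedback inhibitors and co-regulators had much higher counts and narrower intervals. NFKBIA (chr14:35401513-35404749) was at 22.6, 23.4 and 22.6 CPM in control, 21.5, 25.2 and 26.4 in carmine and 22.8, 24.4 and 25.4 in carminic acid. Both treated groups overlapped with control, at log2 fold changes of 0.09 (95% interval -0.10 to 0.29) and 0.08 (-0.11 to 0.28). TNFAIP3, whose product A20 removes activating ubiquitin chains from the pathway (chr6:137866349-137883312), was at 36.3, 40.2 and 37.3 CPM in control, 39.0, 35.2 and 33.9 in carmine and 38.9, 39.3 and 39.4 in carminic acid. Its values overlapped likewise, at -0.07 (-0.25 to 0.10) and 0.05 (-0.12 to 0.22).

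NFKBIZ, which encodes the nuclear regulator IκBζ (chr3:101827990-101861022), was at 36.4, 33.9 and 32.7 CPM in control, 33.4, 28.9 and 28.8 in carmine and 30.1, 29.9 and 29.2 in carminic acid. The carminic acid libraries were close together and all below control, whereas carmine library A lay within the control range. NFKBIZ's log2 fold change was -0.21 in carminic acid with a standard error of 0.084 (unadjusted p = 0.0269, edgeR adjusted p = 0.717), and -0.18 in carmine (unadjusted p = 0.0533, edgeR adjusted p = 0.454). BIRC3, which encodes the ubiquitin ligase cIAP2 (chr11:102317484-102339403), was at 4.09, 4.93 and 5.01 CPM in control, 4.67, 4.83 and 3.46 in carmine and 3.80, 4.11 and 3.22 in carminic acid. Carminic acid library B just exceeded control library A, and the BIRC3 value in carminic acid was -0.33 (unadjusted p = 0.0543, edgeR adjusted p = 0.717).

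TNFAIP2, a cytokine-inducible gene linked to membrane protrusions (chr14:103121469-103137439), had the smallest p of the list. It stood at 11.4, 13.1 and 11.2 CPM in control, 9.48, 8.74 and 10.2 in carmine and 11.1, 11.5 and 10.7 in carminic acid. All 3 carmine libraries were below all 6 others. The log2 fold change of carmine against control was -0.33 with a standard error of 0.10 (95% interval -0.55 to -0.12, unadjusted p = 0.00535, edgeR adjusted p = 0.358); 1.46% of the genes tested had a smaller p. Leaving out 1 library at a time moved the TNFAIP2 value between -0.38 and -0.26. In carminic acid it was -0.10 (edgeR adjusted p = 0.786).

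The subunit genes did not stand apart from control beyond their spread in carmine. NFKB1, which encodes p105 and p50 (chr4:102501359-102617302), was at 22.3, 21.7 and 23.8 CPM in control, 21.7, 20.4 and 22.0 in carmine and 25.2, 23.2 and 22.4 in carminic acid. Its log2 fold changes were -0.08 (95% interval -0.26 to 0.10) in carmine and 0.06 (-0.12 to 0.24) in carminic acid. NFKB2, the source of p52 (chr10:102394110-102402529), was at 24.5, 24.9 and 24.9 CPM in control, 22.9, 23.5 and 28.9 in carmine and 26.3, 26.8 and 25.6 in carminic acid. The carminic acid libraries were all above control for NFKB2, by 0.08 (edgeR adjusted p = 0.799), and carmine library C was above both other carmine libraries. RELB, the partner of p52 in the alternative pathway, had 4.25 ± 0.191, 4.94 ± 1.26 and 5.35 ± 0.549 CPM (SD, n = 3) in control, carmine and carminic acid. The lowest carminic acid library had 4.85 CPM of RELB and the highest control library 4.47, a log2 fold change of 0.33 (unadjusted p = 0.0624, edgeR adjusted p = 0.717). In carmine the RELB value of 0.22 rested on library C, at 6.34 CPM, and was 0.0044 without it.

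Among the effectors, ICAM1, a leukocyte adhesion receptor (chr19:10271120-10286615), was at 46.9, 46.2 and 42.9 CPM in control, 45.6, 44.7 and 52.4 in carmine and 50.1, 54.4 and 50.6 in carminic acid. All carminic acid libraries were above all control libraries, by a log2 fold change of 0.19 with a standard error of 0.082 (unadjusted p = 0.0362, edgeR adjusted p = 0.717). The carmine groups overlapped with control for ICAM1 (0.07, edgeR adjusted p = 0.762). PTGS2, the inducible cyclooxygenase (chr1:186671791-186680423), was at 4.93, 5.71 and 5.83 CPM in control, 4.60, 4.51 and 4.06 in carmine and 5.54, 3.36 and 3.80 in carminic acid. Carmine was below control in every library, by -0.32 (unadjusted p = 0.0764, edgeR adjusted p = 0.479). Carminic acid library A lay within the control range, and the PTGS2 value there was -0.37 (unadjusted p = 0.0430, edgeR adjusted p = 0.717), or -0.62 without that library and -0.23 without carminic acid library B. SOD2, the mitochondrial manganese superoxide dismutase (chr6:159669069-159762281), was at 99.7, 99.6 and 104 CPM in control, 105, 98.2 and 90.2 in carmine and 103, 92.2 and 103 in carminic acid. Its groups overlapped, at -0.05 (95% interval -0.21 to 0.12) and -0.02 (-0.19 to 0.14).

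The list holds a pair of bacterial sensors. TLR2, the receptor for bacterial lipoproteins (chr4:153684280-153710637), was at 32.4, 32.8 and 34.1 CPM in control, 35.7, 37.9 and 35.3 in carmine and 31.4, 34.5 and 34.4 in carminic acid. The carmine libraries were all above all 6 others, by a log2 fold change of 0.13 against control (95% interval -0.03 to 0.30, unadjusted p = 0.101, edgeR adjusted p = 0.512). TLR4, the lipopolysaccharide receptor, had 2 to 14 counts per library and means of 0.165 ± 0.0547, 0.105 ± 0.0432 and 0.108 ± 0.126 CPM (SD, n = 3).

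**Figure D4:**
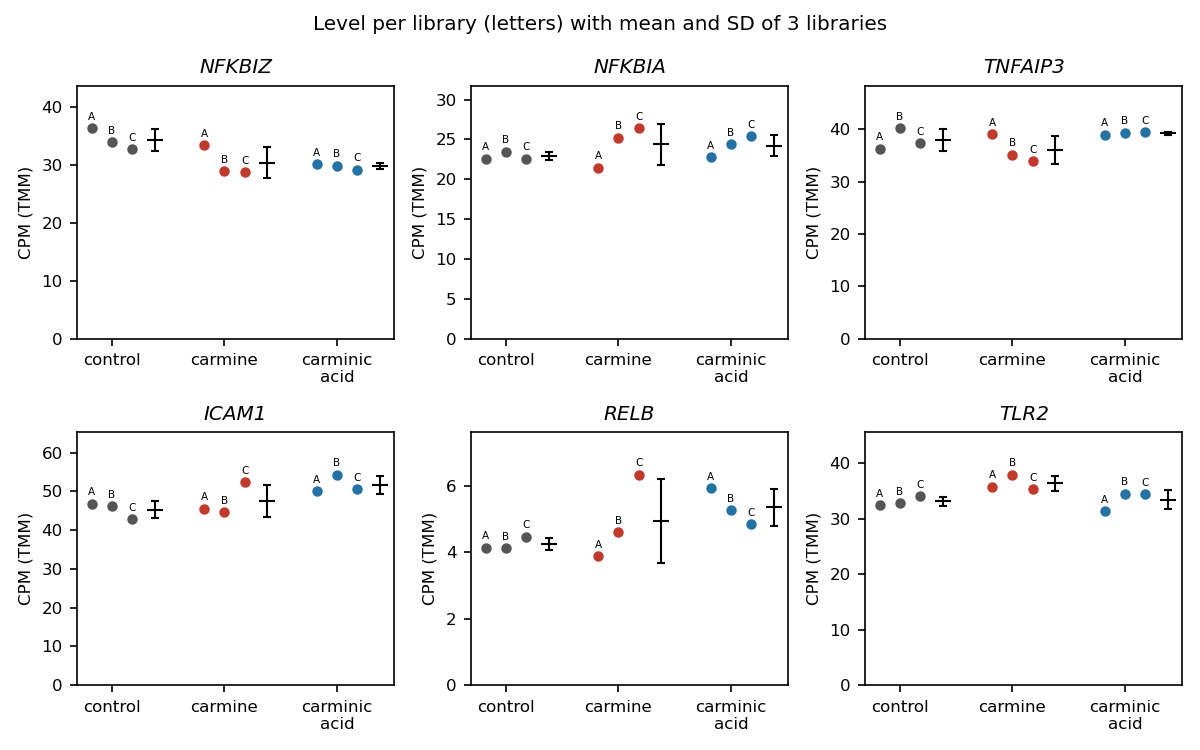
TMM-scaled level (CPM, linear axis from 0) of NFKBIZ, NFKBIA, TNFAIP3, ICAM1, RELB and TLR2 in each library, with group mean and SD of 3 libraries. Carminic acid points lie above every control point for ICAM1 and RELB and below for NFKBIZ, carmine points lie above control for TLR2, and carmine library C is the highest of its group for ICAM1 and RELB.

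The carmine and carminic acid groups were also set against each other, as treated with 10 and 20 µM, which is not a comparison at a matched dose. Of the 22 genes 0 were called, against 1 of all genes (0.00624%). At an unadjusted p under 0.05, 1 of the 22 was higher in carmine and 1 lower, where 5.65% and 3.25% of all genes were; groups did not overlap for 1 gene higher and 3 lower, against 7.09% and 6.01%. CXCL8 was 0.70 higher in carmine on the log2 scale (95% interval 0.05 to 1.35, unadjusted p = 0.0377, edgeR adjusted p = 0.536). Without carminic acid library A the CXCL8 value was 1.16, and with GC and length trends removed it was 0.42. TNFAIP2 had a value of -0.23 (-0.45 to -0.01, unadjusted p = 0.0381, edgeR adjusted p = 0.536), or -0.13 with trends removed. For CXCL2 (-0.47) and NFKB1 (-0.14) every carmine library was below every carminic acid library, and for TLR2 (0.12) every one was above. Values were positive for 6 and negative for 16 of the 22, with a median of -0.11, while over all genes 51.1% were positive and the median was 0.0046. Carmine library C weighed on this comparison: without it 685 genes were called, 0 of them in the list, and 8 of 23 genes then tested had an unadjusted p under 0.05, where 22.2% of all genes did. CXCL1 entered the test there with a log2 fold change of 2.02 (edgeR adjusted p = 0.111), on counts of 14 and 14 against 4, 6 and 0.

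The precision followed the depth. For the 10 genes with an average of at least 3 on the log2 CPM scale, all 95% intervals lay between -0.55 and 0.30 for carmine against control, between -0.39 and 0.37 for carminic acid against control and between -0.45 and 0.29 for carmine against carminic acid. For the 12 less abundant genes they reached from -2.11 to 0.85, from -2.10 to 1.18 and from -1.61 to 1.58. A p that misses the threshold does not show that the groups were alike, and for the chemokines and interleukins a change of 1 log2 unit lies within several of these intervals.

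GC content and transcript length both moved with the fold changes. Across 15454 genes with a reference transcript, Spearman's rho between GC content and log2 fold change was 0.14 for carmine against control, 0.48 for carminic acid against control and -0.30 between the treated groups, a description across genes of the same libraries. For transcript length rho across the same genes was -0.26, -0.11 and -0.19 in that order, larger in size than the GC value for carmine. Among the 22 genes rho with GC content for carminic acid was 0.64. The GC-poor CXCL8 (33.4% GC), BIRC3 (34.8%) and PTGS2 (36.9%) had values of -0.74, -0.33 and -0.37, and the GC-rich RELB (65.4%) and ICAM1 (56.9%) had 0.33 and 0.19. With GC and length trends removed from each library, rho among the 22 was 0.29, and the carminic acid values were -0.54 for CXCL8, -0.14 for BIRC3, -0.22 for PTGS2, 0.22 for RELB and 0.13 for ICAM1. The NFKBIZ value was -0.18 there, and that of NFKB2 changed sign to -0.01. Not all carminic acid values shrank. TNFAIP2 (62.0% GC) went from -0.10 to -0.20, TLR2 (39.3%) from 0.013 to 0.13 and LIF (56.9%) from -0.02 to -0.09. In carmine the same step left TNFAIP2 at -0.33 (edgeR adjusted p = 0.0643), CCL20 at -0.78, CXCL2 at -0.71 and IL1B at -0.62, and 6 of the 22 were lower and 1 higher at an unadjusted p under 0.05, where 7.90% and 10.2% of all genes were. No gene of the list was called.

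**Figure D5:**
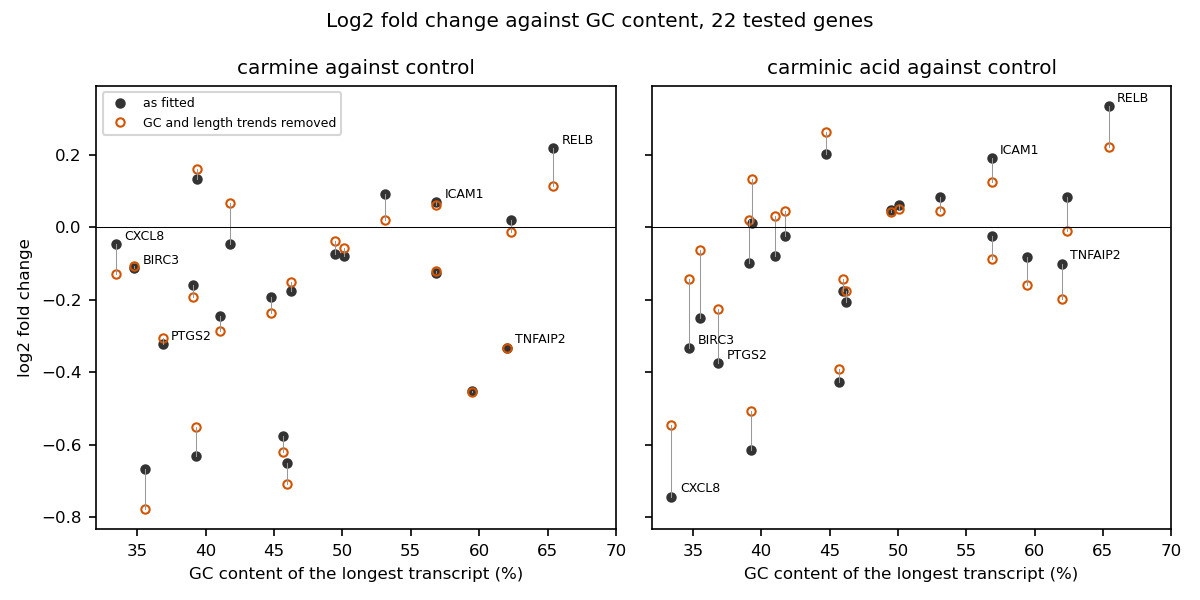
Log2 fold change of the 22 tested genes against GC content of the longest transcript (%), for carmine and carminic acid against control; filled points are the values as fitted, open points the values after GC and length trends were removed, joined per gene. For carminic acid CXCL8 moves from -0.74 to -0.54 and RELB from 0.33 to 0.22, while TNFAIP2 in carmine stays at -0.33.

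The pathway genes around these targets gave no calls either in the main edgeR fit of all 9 libraries. All 31 genes of a list of signal transducers were tested; 16 were above and 15 below control in carmine (median log2 fold change 0.0014), and 19 and 12 in carminic acid (median 0.06). TNIP1, an A20-binding inhibitor, was the most abundant of them at 260.2 ± 6.89 CPM in control (SD, n = 3). IKBKG, which encodes the NEMO subunit of the IκB kinase, had the smallest p against control for both colours. It had 4.06 ± 0.369 CPM in control, 3.08 ± 0.315 in carmine and 3.13 ± 0.205 in carminic acid, and neither treated group overlapped with control. The IKBKG log2 fold changes were -0.40 (unadjusted p = 0.0141, edgeR adjusted p = 0.386) and -0.38 (unadjusted p = 0.0187, edgeR adjusted p = 0.717). TIRAP, an adaptor of TLR2 and TLR4, was lowest in carmine, at 11.6 ± 1.29 CPM against 13.3 ± 0.492 in control and 13.9 ± 0.765 in carminic acid; carmine against carminic acid was -0.27 (unadjusted p = 0.0197, edgeR adjusted p = 0.489).

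Of 30 cytokine and pattern receptor genes 22 were tested, 13 above and 9 below control for both colours, with medians of 0.02 and 0.07. IL6ST, the shared receptor subunit for IL-6 and LIF, was the most abundant at 273.9 ± 28.3 CPM. TNFRSF1A, the main TNF receptor, was at 70.4 ± 2.20 CPM in control, 78.5 ± 6.02 in carmine and 77.6 ± 2.92 in carminic acid, with log2 fold changes of 0.16 and 0.14 (edgeR adjusted p = 0.454 and 0.717). TLR9, a sensor of bacterial DNA, was at 0.224 ± 0.0109 CPM in control and 0.451 ± 0.133 in carminic acid (1.00, edgeR adjusted p = 0.717). CXCR4, a chemokine receptor, had the smallest p between the treated groups (0.25, edgeR adjusted p = 0.584).

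Of 38 further NF-κB targets 27 were tested, 17 above and 10 below control for both colours, with medians of 0.04 and 0.06. Removing GC and length trends took the smallest edgeR adjusted p of this list in carmine to 0.0499, under the threshold of 0.05. BCL2L1, an anti-apoptotic gene, was the most abundant at 376.4 ± 5.22 CPM. CX3CL1, the membrane-bound chemokine fractalkine, was at 72.4 ± 5.14 CPM in control, 84.3 ± 9.30 in carmine and 88.6 ± 2.13 in carminic acid. Its carminic acid libraries were all above control (0.29, unadjusted p = 0.00427, edgeR adjusted p = 0.717) and its carmine libraries overlapped with control (0.22, unadjusted p = 0.0222, edgeR adjusted p = 0.403). IL18, an interleukin-1 family cytokine of epithelia, was at 28.7 ± 0.448 CPM in control, 32.9 ± 2.69 in carmine and 29.3 ± 1.27 in carminic acid. CCL3, CCL4, CCL5, CXCL6 and VCAM1 are listed at 0, and for CCL3 and CCL4 the highest of the 20 nearest genes had 75 and 45 counts, so the limit stated for TNF holds for them too.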

How the data were processed

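Raw counts per gene were deposited, 1 file per library with NCBI Gene IDs. Per the file headers, the alignments came from HISAT2. Per the submitters' processing notes, the build was hg38 and the tools were featureCounts, HISAT and FastQC, with no version stated. The sources used here do not give the strand setting, the annotation release or the handling of reads with several matches. Symbols came from the RefSeq table of GRCh38.p14, which matched 27745 of 28395 genes; the 650 others held 0.0432% of counts. Libraries of a group differed by more than sampling noise (chi-square per degree of freedom at least 9.51).

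The counts went through edgeR 4.0.16 (R 4.3.3): filterByExpr by group, TMM, robust quasi-likelihood fits over all 9 libraries without covariates, 2-sided tests and Benjamini-Hochberg adjustment over 16017 genes, called at 0.05. The common biological coefficient of variation over all genes was 10.9%. Per gene, it ran among the tested members from 7.11% (TLR2) to 37.2% (TLR4), with 25.1% for CXCL8. The fit was tested on simulated data with the same spread for every gene, which says little about members with low counts. Alternatives used DESeq2 1.42.0, limma 3.58.1 (voom), other scalings and filters, a replicate block, GC and length offsets (longest GENCODE transcript, natural splines), and leaving out each library. TPM used the longest transcript.

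The members and lists were chosen with earlier results of these data known. Values per library are given for tested members that average 3 or more on the log2 CPM scale, among the 5 smallest p of a comparison, or with an unadjusted p under 0.05; others get means or counts. In each other list the most abundant gene and the smallest p per comparison are named; DDX39B, DDX39A, PRRC2A, CIZ1 and TOMM7 were chosen after their values were seen.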

Additional observations from a re-analysis of the deposited data

How the results depend on the processing

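No member was called in any of the 3 comparisons under any of 19 alternatives. In carminic acid against control the adjusted p still moved. For CXCL8 and ICAM1 it was 0.717 in the main edgeR fit and 0.138 with limma-voom, and for BIRC3 0.717 and 0.139. For NFKBIZ it went from 0.717 to 0.126 in edgeR with only the 6 libraries compared. The largest value of each of these genes over the alternatives was 0.997. Counts over all genes moved more. Carmine against control had 0 calls and gave 7 with RLE size factors, 7 with library size alone, 19 without the count filter, 76 with DESeq2, 43 with limma-voom, 195 with GC and length trends removed and 12 with only the 6 libraries compared; leaving out 1 library gave 0 to 36, the latter without carmine library C. Carminic acid against control had 0 calls and gave 2 without the filter, 6 with DESeq2 and 34 with limma-voom. It gave 4 with trends removed and 49 with only 6 libraries. Leaving out 1 library gave 0 to 21, the latter without carmine library C. Carmine against carminic acid had 1 call and gave 2 with RLE, 2 with library size alone, 9 without the filter, 76 with DESeq2, 13 with limma-voom, 0 with non-robust estimation and 12 with trends removed; leaving out 1 library gave 0 to 685. The cause was not tested. The median log2 fold change of the members ranged from -0.23 to -0.091, from -0.15 to -0.039 and from -0.17 to -0.032 over the libraries left out. Members with an unadjusted p under 0.05 numbered 3, 4 and 2 in the 3 comparisons, where 10.99%, 6.43% and 8.90% of all genes passed. Carmine against control gave 1 without control library A (all genes 7.49%) or B (6.90%) and with DESeq2 (11.5%), 5 with library size alone (10.7%) or no filter (9.06%) and 7 with trends removed (18.1%). Carminic acid against control gave 1 or 2 without control library B or C or carminic acid library B or C (3.24% to 3.97%). It gave 5 with DESeq2 (6.63%) and 6 of 23 without carmine library C (15.3%). Between the treated groups it was 8 without carmine library C (22.2%) and 0 or 1 without any other treated library (5.11% to 11.3%). Among the other pathway lists, tabulated under 4 of the alternatives, the smallest edgeR adjusted p was 0.0471 for the transducers between the treated groups without carmine library C and 0.0499 for the further targets in carmine with trends removed. Both are calls at the threshold of 0.05.

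With the letters as a replicate block, 0 genes were called in each comparison. Correlations of deviations from the group means ran from -0.49 to 0.47 for same-letter and from -0.51 to 0.57 for different-letter libraries. With 3 libraries per group these values cannot decide whether the letters mark pairs. The letters were not treated as pairs because the labels do not say that they mark a shared culture or day. Depth limits the chemokines, interleukins and untested genes, and carmine library C moves the carmine values of several members, among them RELB, CCL20 and CSF1.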
